A study of Mus musculus with 35 samples.

Results

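The stem and progenitor surface markers are 9 genes whose proteins are used, alone or in combination, to tell hematopoietic stem and progenitor cells from their progeny by flow cytometry: Cd34, Ly6a, Procr, Slamf1, Cd48, Cd93, Esam, Prom1 and Cd27. They were chosen by name from the 49671 genes of the count table, and all 9 were measured in all 35 libraries and were among the 17166 genes with enough counts to be tested. The libraries come from mouse bone marrow cells depleted of lineage-positive cells (lin- HSPCs; C57Bl/6, both sexes, 8 weeks old by the labels), transduced with lentivirus, sorted for the fluorescent reporters and grown for 1 week in methylcellulose (M3434) with 10 ng/mL GM-CSF. The labels give a greater age for 3 libraries, namely 9 weeks for replicate 4 and 10 weeks for replicate 5 of the empty vector, and 11 weeks for replicate 1 of G-NHX9.

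Each of the 7 groups had 5 libraries. Empty is the vector alone, and G-NHX9 (G-NHA9 in the study's own text) is the mEGFP-tagged fusion of the FG-repeat region of the nucleoporin NUP98 to the DNA-binding homeodomain of HOXA9. In G-NHX9-8FA some phenylalanines of the C-terminal FG repeats were replaced by alanine, and in G-NHX9-21FGAA a larger number of phenylalanine-glycine pairs of that region were replaced. G-NHX9-midi carries only the C-terminal portion of the NUP98 part, without the GLEBS domain, and G-NHX9-midi-21FGAA is that shortened protein with its FG pairs replaced. G-NHX9-DDNA keeps the FG repeats but has a homeodomain altered to bind DNA weakly. By the study's methods, Empty cells were sorted for mCherry alone and cells with a construct for mCherry and mEGFP together, so the gate cannot be told apart from the construct in comparisons with Empty. All groups share the donor strain, the culture and its cytokines, and every construct was expressed from a viral vector on top of the cells' own Nup98 and Hoxa9. The methods describe cells of several mice isolated in parallel and a transduction in triplicate with each virus, whereas each group here has 5 libraries. Which libraries share a mouse or a transduction is not given, so p-values measure the spread between these libraries.

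In adult mouse marrow, blood stem cells are commonly isolated as Kit-positive, Ly6a-positive (Sca-1) cells that carry CD150 (Slamf1) and EPCR (Procr) and lack CD48, whereas CD34 and CD48 appear on the multipotent and myeloid progenitors that follow. CD93 and CD27 mark early progenitors, ESAM marks stem cells and endothelium, and prominin-1 (Prom1, CD133) is a marker of human more than of mouse stem cells. Several of these proteins are not particular to stem cells: Slamf1 and Esam are also made by megakaryocytes, Cd34 by mast cell precursors, Cd93 by monocytes and macrophages, and Ly6a is induced by interferon. HOXA9 and fusions of NUP98 are known for keeping myeloid progenitors in a proliferating state.

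Between 31559914 and 75810659 reads were counted per library, with group means from 37615026 in G-NHX9 to 54326138 in G-NHX9-midi-21FGAA, so that 3 counts, taken here as the floor of detection, correspond to 0.0382 to 0.0996 CPM. CPM are read counts scaled to a common library size, here with TMM factors that correct for differences in composition between libraries. Transcripts of the neutrophil and macrophage lineages were present in every library after the week of culture. Those of 7 neutrophil genes, among them Mpo, Elane and Prtn3, summed to between 2890 and 18400 CPM, and 5 macrophage genes to between 1300 and 3500 CPM. The 5 lymphoid markers never exceeded a sum of 0.539 CPM. Kit, the receptor for stem cell factor that defines the progenitor compartment, had group means from 45.2 to 216 CPM.

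Per kilobase of annotated exon, Cd93 and Ly6a were the most abundant of the 9 transcripts, at 133 and 116 CPM per kb as the mean of the group means. Cd48 followed at 47.8, Cd34 at 15.8, Procr at 10, Prom1 at 4.96, Slamf1 at 1.85, Esam at 1.28 and Cd27 at 0.374 CPM per kb. The spread between groups was not alike. The highest group mean exceeded the lowest 5.96-fold for Cd34, 3.54-fold for Ly6a, 17.2-fold for Slamf1 and 15.2-fold for Esam. Procr, Cd48 and Cd93 spanned much narrower ranges, from 14 to 24.6 CPM, from 46.8 to 72.5 CPM and from 662 to 1120 CPM. Prom1 ran from 21.3 to 53.4 CPM, and Cd27 from the floor in Empty to 2.43 CPM in G-NHX9.

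**Figure D1:**
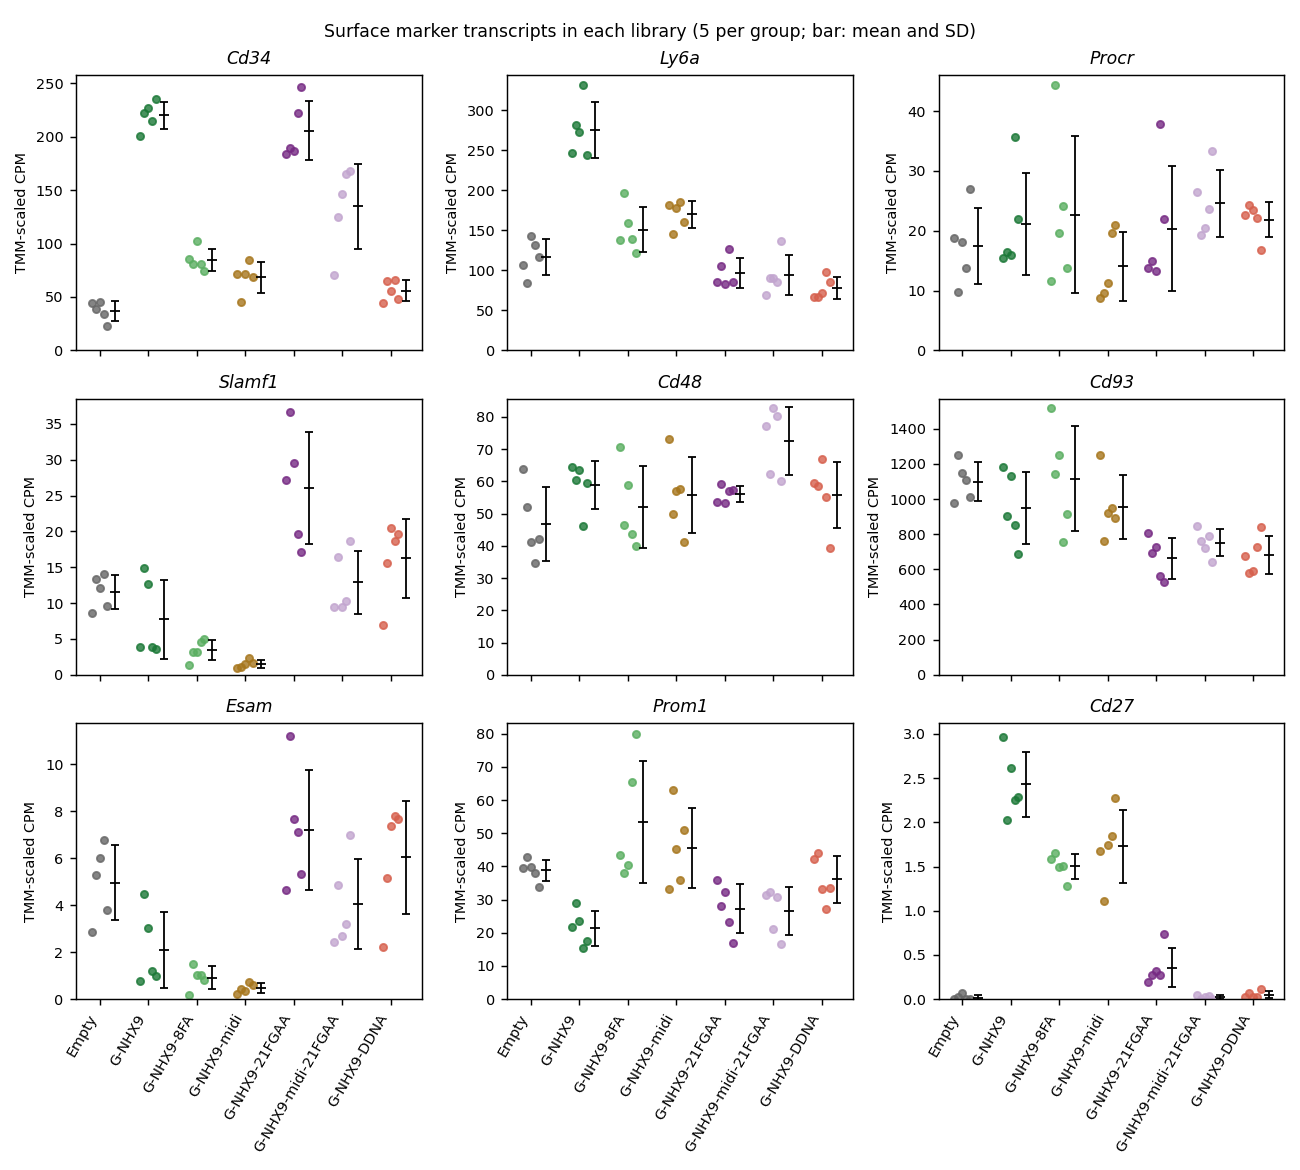
TMM-scaled CPM (vertical axis, linear, from 0) of the 9 surface markers in each of 35 libraries, grouped by construct on the horizontal axis; points are libraries and black bars the mean and SD of 5. Cd34 is highest in G-NHX9 (201 to 235 CPM) and G-NHX9-21FGAA (184 to 247 CPM), Ly6a in G-NHX9 alone, and Slamf1 and Esam are lowest in G-NHX9-midi.

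The genes are placed by GENCODE M21 on GRCm38 as follows. Cd48 (chr1:171682009-171705258) and Slamf1 (chr1:171767127-171801184) are neighbours in the SLAM cluster, 61868 bp apart on the plus strand. Cd34 is at chr1:194938819-194961279 on the plus strand. Procr (chr2:155751117-155755471) and Esam (chr9:37528078-37538319) are also on the plus strand, and Cd93 (chr2:148436640-148443563), Ly6a (chr15:74994877-74998031), Prom1 (chr5:43993620-44102032) and Cd27 (chr6:125232622-125237010) are on the minus strand. All are protein-coding. Cd34 and Prom1 overlap antisense transcripts and Cd27 overlaps Vamp1 on the other strand, so reads of these genes are assigned cleanly only if strand was used in counting, which the sources used here do not state. Cd48, Prom1 and Cd27 each also share some sequence with 1 non-coding gene on their own strand.

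RefSeq promoter windows (GRCm38.p6) were matched for 6 of the 9 genes, with Ly6a, Cd93 and Esam not matched. The 250 bases before the annotated start are shown for the 3 of these genes whose group means spanned the widest ratios. Capitals mark TTTAT and TTTAC, letters bound by posterior HOX homeodomains such as that of HOXA9, and GATAA, the letters bound by GATA factors, on either strand.
Cd34 (chr1:194938571-194938820, plus strand): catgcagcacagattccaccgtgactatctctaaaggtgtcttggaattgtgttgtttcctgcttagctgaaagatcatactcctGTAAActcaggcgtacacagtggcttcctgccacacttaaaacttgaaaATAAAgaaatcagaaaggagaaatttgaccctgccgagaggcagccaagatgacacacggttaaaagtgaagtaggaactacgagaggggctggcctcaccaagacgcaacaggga
Slamf1 (chr1:171766882-171767131, plus strand): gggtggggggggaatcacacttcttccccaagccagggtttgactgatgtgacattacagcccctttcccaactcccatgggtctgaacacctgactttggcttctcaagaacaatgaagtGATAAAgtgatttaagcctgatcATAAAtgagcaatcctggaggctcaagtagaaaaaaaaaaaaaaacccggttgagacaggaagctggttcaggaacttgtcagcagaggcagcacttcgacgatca
Cd27 (chr6:125237028-125237277, minus strand): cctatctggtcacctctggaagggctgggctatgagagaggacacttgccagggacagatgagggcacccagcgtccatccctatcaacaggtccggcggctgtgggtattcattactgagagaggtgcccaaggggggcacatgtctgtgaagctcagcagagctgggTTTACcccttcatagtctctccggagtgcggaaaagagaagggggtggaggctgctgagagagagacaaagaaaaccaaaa
TTTAT occurred on the reverse strand 116 bases before the start of Cd34, and at 128 and 106 bases before that of Slamf1, where the farther match overlapped GATAA at 129 bases. TTTAC occurred on the reverse strand at 165 bases in Cd34 and on the forward strand at 81 bases in Cd27. Of 32851 windows of the same length, 37.3% held TTTAT, 28.3% held TTTAC and 22.6% held GATAA on either strand, so a match describes common letters and not binding.

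Against the empty vector, 3 to 5 of the 9 markers were changed in each construct, in both directions. A call means an adjusted p under 0.05 in the quasi-likelihood test of edgeR, adjusted after Benjamini and Hochberg over all tested genes. In G-NHX9, Cd34, Ly6a and Cd27 were higher and Esam and Prom1 lower, where 16.9% and 15.2% of all tested genes (32.1% together) were called. In G-NHX9-8FA, Cd34 and Cd27 were higher and Slamf1 and Esam lower, against 13.4% and 13.2% of all genes (26.6%). In G-NHX9-midi, Cd34, Ly6a and Cd27 were higher and Slamf1 and Esam lower, against 20.5% and 20% (40.5%). G-NHX9-21FGAA had higher Cd34, Slamf1 and Cd27 and lower Cd93, against 14.7% and 12.5% (27.1%). G-NHX9-midi-21FGAA had higher Cd34 and Cd48 and lower Cd93, against 9.59% and 7.32% (16.9%). G-NHX9-DDNA had higher Cd34 and lower Ly6a and Cd93, against 9.85% and 7.35% (17.2%). Counts given for other gene lists against Empty are to be read against the same shares.

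The ranges of the construct and of Empty did not overlap for 4 of the 9 markers in G-NHX9 (20.1% of all genes), in G-NHX9-8FA (17.1%), in G-NHX9-midi (27.4%) and in G-NHX9-21FGAA (16.8%), for 3 in G-NHX9-midi-21FGAA (11.5%) and for 1, Cd93, in G-NHX9-DDNA (12.1%). The median log2 fold change of the 9 markers lay between -0.15 and 0.38, and that of all tested genes between -0.02 and 0.03. The 6 comparisons use the same 5 empty vector libraries, and the counts describe 9 chosen genes.

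**Figure D2:**
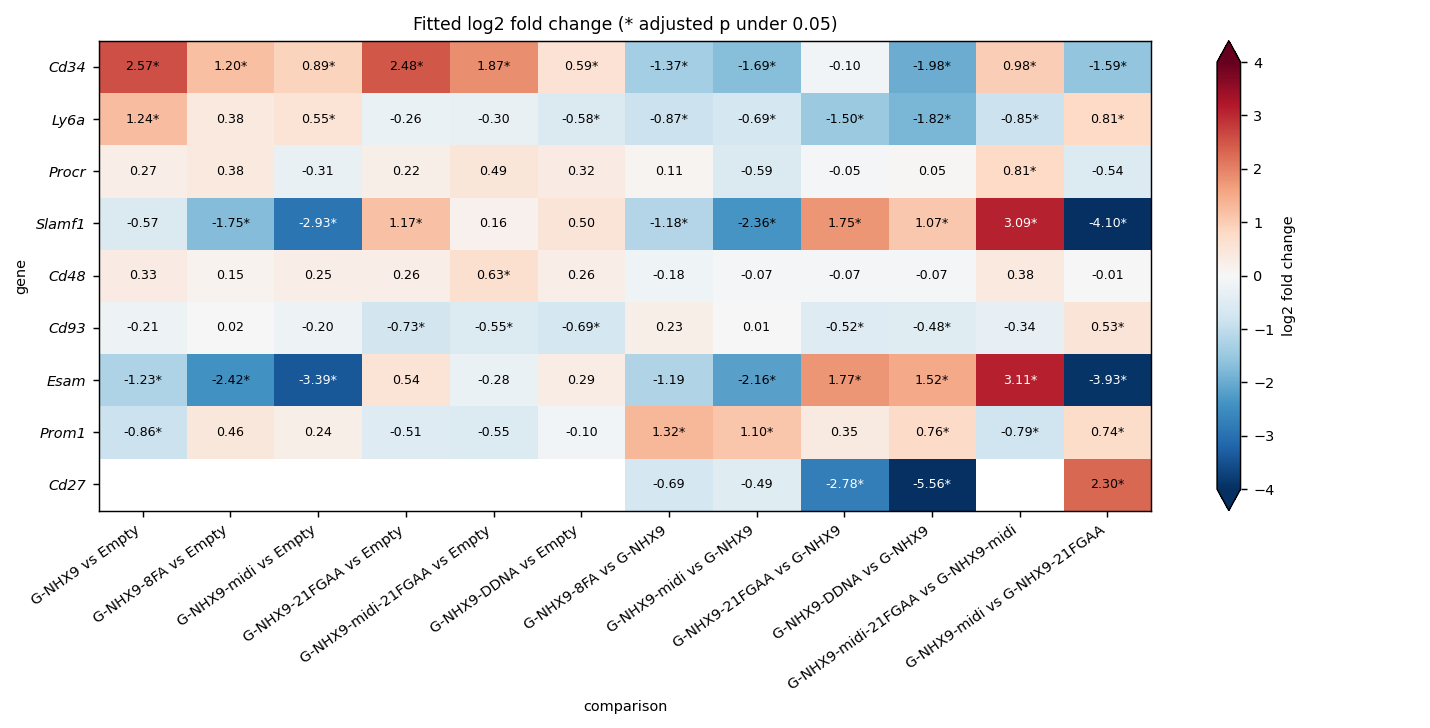
Fitted log2 fold change of each marker (rows) in each of 12 comparisons (columns; first group minus second), from blue (lower) to red (higher, colours saturating at 4), with an asterisk where the adjusted p was under 0.05. Cd34 is higher in all 6 comparisons with Empty, Slamf1 is lowest in G-NHX9-midi against G-NHX9-21FGAA (-4.10), and comparisons of Cd27 with Empty or G-NHX9-midi-21FGAA, which lie at the floor, are left blank.

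Cd34, a sialomucin of progenitors and vascular endothelium that modulates adhesion, was the 1 marker higher in every construct. The empty vector libraries held 44.1, 38.3, 45.5, 34 and 22.6 CPM. G-NHX9 held 201, 222, 227, 215 and 235 CPM, and no library of it came near the controls. Its fitted fold change was 5.96 (log2 2.57 ± 0.19 SE, adjusted p = 3.5e-12). In G-NHX9-21FGAA the libraries held 184, 189, 187, 222 and 247 CPM, and the difference from Empty was 2.48 ± 0.19 on the log2 scale (adjusted p = 1.1e-10). Between G-NHX9-21FGAA and G-NHX9 no difference was detected (log2 -0.1, 95% interval -0.46 to 0.27). In bulk RNA, fewer cells of a type and less RNA per cell cannot be told apart.

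Cd34 levels were intermediate with the 8FA and the shortened proteins. G-NHX9-8FA held 85.3, 81.1, 102, 81.2 and 74.3 CPM, above all controls (log2 1.20 ± 0.18, adjusted p = 6.7e-06) and below all G-NHX9 libraries (log2 -1.37 ± 0.18, adjusted p = 2.3e-06). G-NHX9-midi held 71.5, 45.3, 71.8, 84.6 and 68.4 CPM, and 4 of its 5 libraries were above every control (log2 0.89 ± 0.18, adjusted p = 0.00019). It was 3.22-fold below G-NHX9 (adjusted p = 4e-08). G-NHX9-midi-21FGAA held 71, 125, 146, 165 and 168 CPM, of which replicate 1 lay within the range of G-NHX9-midi. It was above all controls (log2 1.87 ± 0.19, adjusted p = 1e-07) and 1.97-fold above G-NHX9-midi (log2 0.98 ± 0.18, adjusted p = 4.4e-05). G-NHX9-DDNA was nearest the controls, with 44.1, 65, 55.5, 66.3 and 48 CPM, 3.94-fold below G-NHX9 (adjusted p = 8.3e-10). The call of its rise over Empty (log2 0.59 ± 0.18, adjusted p = 0.022) was lost when some libraries were left out. The adjusted p was 0.051, 0.072, 0.065 and 0.058 without Empty replicate 4, Empty replicate 5, G-NHX9-DDNA replicate 2 and G-NHX9-DDNA replicate 4. The log2 values there were 0.57, 0.47, 0.53 and 0.53. Without the 3 libraries labelled older than 8 weeks it was 0.39 (adjusted p = 0.19).

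In the order of group means, Cd34 ran from G-NHX9 (220 CPM) through G-NHX9-21FGAA (206), G-NHX9-midi-21FGAA (135), G-NHX9-8FA (84.9), G-NHX9-midi (68.3) and G-NHX9-DDNA (55.8) to Empty (36.9). Only G-NHX9-21FGAA and G-NHX9-midi-21FGAA were neighbours whose libraries did not overlap. Podxl, a paralog of Cd34, was lower in G-NHX9-8FA and G-NHX9-midi (log2 -1.44 and -1.94) and higher in G-NHX9-21FGAA, G-NHX9-midi-21FGAA and G-NHX9-DDNA (1.84, 1.35 and 1.43). Transcripts of mast cells and basophils followed the order of Cd34 only in part, being high also in G-NHX9-DDNA and low in G-NHX9. Their 7 markers summed to 2700 to 3790 CPM in G-NHX9-21FGAA, 2210 to 4950 CPM in G-NHX9-midi-21FGAA and 2020 to 3160 CPM in G-NHX9-DDNA. They summed to 445 to 779 CPM in G-NHX9, which had the highest Cd34, to 449 to 763 CPM in G-NHX9-8FA, to 378 to 694 CPM in G-NHX9-midi and to 960 to 2870 CPM in Empty, and none of the 7 was at 0 throughout a group. Their part in the Cd34 levels was not tested.

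Ly6a, the GPI-anchored Sca-1 antigen, was highest in G-NHX9, whose libraries lay above those of every other group. Empty libraries held 107, 83.9, 143, 132 and 116 CPM, and those of G-NHX9 held 247, 281, 272, 331 and 244 CPM, 2.36-fold higher with no overlap (log2 1.24 ± 0.16, adjusted p = 3e-07). G-NHX9-midi held 182, 145, 178, 185 and 160 CPM and was also above every control (log2 0.55 ± 0.16, adjusted p = 0.0059), but below every G-NHX9 library (log2 -0.69 ± 0.16, adjusted p = 0.0017). G-NHX9-8FA, at 138, 196, 159, 139 and 122 CPM, lay below every G-NHX9 library and overlapped G-NHX9-midi and Empty (log2 0.38 ± 0.16, adjusted p = 0.078; 0.45 with an adjusted p of 0.047 without Empty replicate 3).

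Ly6a was not called higher in the constructs with the 21FGAA replacement or with weakened DNA binding. G-NHX9-21FGAA held 85.8, 105, 82.9, 126 and 85.2 CPM, and the difference from Empty was -0.26 on the log2 scale (95% interval -0.59 to 0.06). It was 2.83-fold below G-NHX9 (adjusted p = 1.5e-08), in the comparison in which no difference in Cd34 was detected. G-NHX9-midi-21FGAA held 69.5, 90.7, 89.9, 85 and 136 CPM, 1.8-fold below G-NHX9-midi with no overlap (adjusted p = 5.1e-05). Its difference from Empty was -0.3 (adjusted p = 0.19), or -0.45 (adjusted p = 0.048) without its replicate 5. G-NHX9-DDNA held 66.8, 66.5, 71.1, 98.1 and 85.6 CPM, below Empty (log2 -0.58 ± 0.16, adjusted p = 0.011; 0.063 without the libraries labelled older) and 3.54-fold below G-NHX9. The Ly6 genes are closely related copies, and how reads shared between them were counted is not given, so their values are uncertain to that extent. Of 6 other Ly6 genes tested, 2 were higher in G-NHX9, 4 in G-NHX9-8FA and 3 in G-NHX9-midi, and 0 in G-NHX9-21FGAA and G-NHX9-DDNA, with 1, Ly6e, lower in G-NHX9-midi-21FGAA.

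Among these, Ly6c2, an antigen of monocytes and neutrophils, had a group mean of 302 CPM in Empty, 872 CPM in G-NHX9, 1070 CPM in G-NHX9-8FA and 1270 CPM in G-NHX9-midi (log2 1.53, 1.83 and 2.07). Ly6f had no count in Empty, and 82, 332, 200, 71 and 243 counts in G-NHX9-midi. Of 9 interferon-induced genes, 0 were called in G-NHX9 by edgeR, and 6 were lower in G-NHX9-midi, where Ly6a was higher. Their median log2 fold change was 0.23 and -1.38 in these comparisons, and their sums lay between 196 and 339 CPM in Empty, 253 and 294 CPM in G-NHX9 and 150 and 184 CPM in G-NHX9-midi. Their part in the Ly6a levels was not tested.

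Slamf1 and Esam, both members of the immunoglobulin superfamily and both made by stem cells and megakaryocytes, were both lower in G-NHX9-8FA and G-NHX9-midi, where Cd34 was higher. Slamf1 encodes the homophilic receptor CD150. Empty libraries held 8.61, 13.4, 12.1, 14 and 9.58 CPM. G-NHX9-midi held 0.937, 1.11, 1.47, 2.38 and 1.69 CPM, 7.62-fold lower with no overlap (log2 -2.93 ± 0.40, adjusted p = 3.9e-07), and G-NHX9-8FA held 1.42, 3.22, 3.13, 4.54 and 4.95 CPM (log2 -1.75 ± 0.37, adjusted p = 0.00059). G-NHX9-21FGAA, in contrast, held 27.2, 36.7, 29.6, 19.7 and 17.1 CPM, above every control (log2 1.17 ± 0.36, adjusted p = 0.014). The direct difference between G-NHX9-midi and G-NHX9-21FGAA was 17.2-fold (log2 -4.10 ± 0.41, adjusted p = 1.3e-09).

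Within G-NHX9 the Slamf1 values fell into separate ranges, with 14.9 and 12.6 CPM in replicates 2 and 3 and 3.84, 3.93 and 3.54 CPM in replicates 1, 4 and 5. No difference of the group from Empty was detected (log2 -0.57, 95% interval -1.31 to 0.16), but without replicate 2 the difference was -0.96 with an adjusted p of 0.043. G-NHX9-midi-21FGAA (9.43, 16.5, 9.49, 10.3 and 18.7 CPM) and G-NHX9-DDNA (6.97, 15.6, 20.5, 18.7 and 19.6 CPM) overlapped Empty. G-NHX9-midi-21FGAA was 8.52-fold above G-NHX9-midi with no overlap (adjusted p = 1.2e-07), and G-NHX9-21FGAA 3.35-fold above G-NHX9 (adjusted p = 0.00063).

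Esam, an adhesion molecule of endothelial junctions, platelets and stem cells, held 2.88, 5.28, 6.03, 6.77 and 3.8 CPM in Empty. In G-NHX9-midi it held 0.239, 0.42, 0.368, 0.722 and 0.618 CPM, or 12 to 30 counts per library, 10.5-fold lower (log2 -3.39 ± 0.49, adjusted p = 1.2e-06). G-NHX9-8FA held 0.163, 1.5, 1.01, 1.05 and 0.825 CPM, also below every control (log2 -2.42 ± 0.46, adjusted p = 0.00015). G-NHX9 held 0.778, 4.46, 3.04, 1.19 and 0.988 CPM, with replicates 2 and 3 again highest. Its call (log2 -1.23 ± 0.43, adjusted p = 0.028) was lost without Empty replicate 3 (0.056), Empty replicate 4 (0.063), G-NHX9 replicate 1 (0.076), G-NHX9 replicate 4 (0.079) or G-NHX9 replicate 5 (0.072), without the libraries labelled older (0.14) and in a fit to the 2 groups alone (0.06). G-NHX9-21FGAA, at 4.66, 11.2, 7.67, 7.14 and 5.32 CPM, was 3.42-fold above G-NHX9 (adjusted p = 0.0034) and its difference from Empty was not called (log2 0.54, 95% interval -0.31 to 1.40). G-NHX9-midi-21FGAA (2.43 to 7.01 CPM) was 8.62-fold above G-NHX9-midi (adjusted p = 3.7e-06), and G-NHX9-DDNA (2.21 to 7.82 CPM) overlapped Empty.

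Megakaryocyte transcripts moved with both genes. Their 5 markers, among them the platelet factor Pf4 and the glycoproteins Gp9 and Gp1bb, summed to 604 to 1140 CPM in Empty, 99.3 to 216 CPM in G-NHX9-midi, 256 to 303 CPM in G-NHX9-8FA and 1050 to 2190 CPM in G-NHX9-21FGAA. All 5 were lower in G-NHX9-midi and G-NHX9-8FA than in Empty, and none was at 0 throughout a group. In G-NHX9 they summed to 896 and 775 CPM in replicates 2 and 3 and to 336, 355 and 345 CPM in replicates 1, 4 and 5, the same split as for Slamf1 and Esam. Over all genes compared, replicates 2 and 3 were also the most alike pair of this group, as they were in every group except Empty. For every 1000 CPM of these markers, a library held between 5.47 and 22.6 CPM of Slamf1 and between 0.628 and 5.95 CPM of Esam, and the medians of the 7 groups lay between 10.9 and 16.8 and between 3.34 and 5.11. The median for Slamf1 was 12.3 in Empty, 10.9 in G-NHX9-midi and 16.8 in G-NHX9-21FGAA, where the lowest library, at 16, exceeded the highest of Empty, at 14.3. The part of megakaryocytes in these results was not tested. The 5 endothelial markers summed to 178 to 342 CPM over all libraries, and Cdh5, the cadherin that defines endothelium, had group means of at most 0.0977 CPM.

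**Figure D3:**
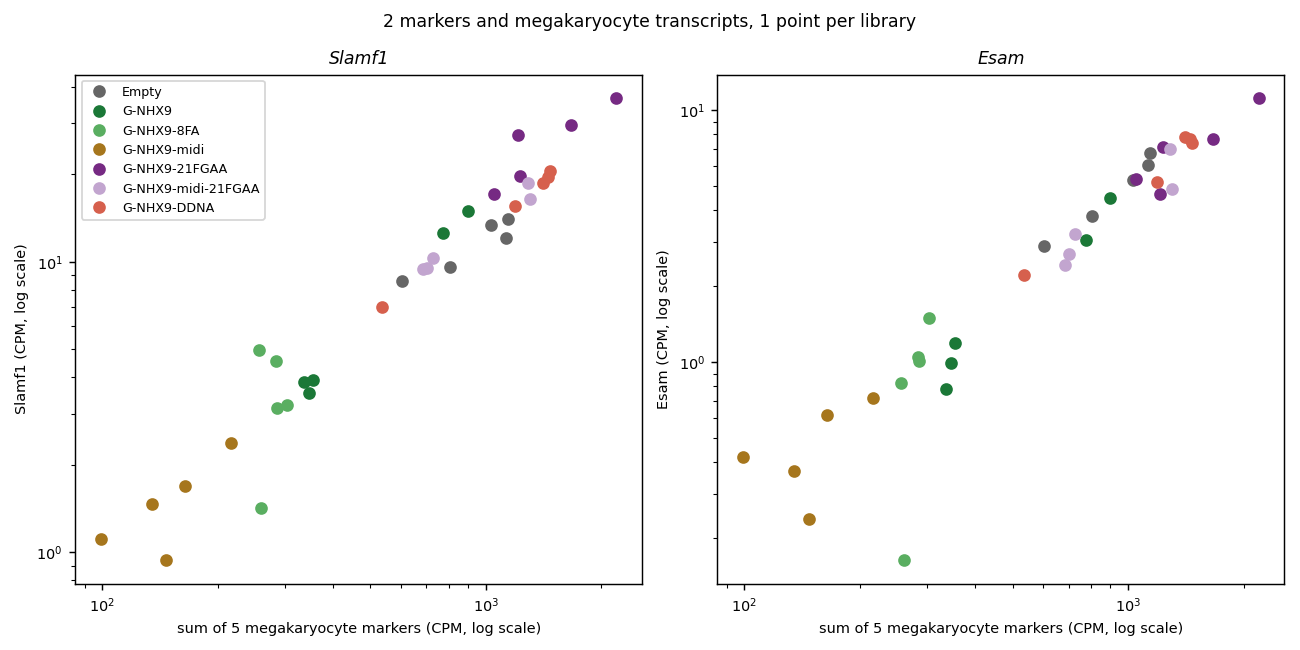
CPM of Slamf1 (left) and Esam (right) against the sum of 5 megakaryocyte markers in the same library, both axes logarithmic, 1 point per library and 1 colour per group. Libraries of G-NHX9-midi lie at the lower left (0.937 to 2.38 CPM of Slamf1) and those of G-NHX9-21FGAA at the upper right (17.1 to 36.7 CPM).

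Cd48, the GPI-anchored SLAM protein that binds CD244 and marks cells past the stem cell stage, varied little between groups. Empty libraries held 63.8, 52.1, 41.3, 34.6 and 42.2 CPM. It was called in 1 comparison with Empty, that of G-NHX9-midi-21FGAA (77.3, 62.2, 82.7, 80.4 and 60.1 CPM; log2 0.63 ± 0.16, adjusted p = 0.0074), and that call was lost without the libraries labelled older (adjusted p = 0.093). In G-NHX9 the difference was 0.33 (adjusted p = 0.12). With the replicate number as a block, which pairs the libraries in that comparison, it was 0.34 with an adjusted p of 0.035, and 6 instead of 5 markers were changed. Leaving out Empty replicate 1 gave 0.46 (adjusted p = 0.032) in G-NHX9 and 0.41 (adjusted p = 0.048) in G-NHX9-midi, where the difference with all libraries was 0.25. Libraries of the other 5 constructs lay between 39.2 and 73.2 CPM. Against G-NHX9-midi, G-NHX9-midi-21FGAA was at 0.38 (adjusted p = 0.057), with an adjusted p of 0.016 without G-NHX9-midi replicate 1 and of 0.042 and 0.035 without replicates 2 and 5 of G-NHX9-midi-21FGAA. It was also called by DESeq2 (adjusted p = 0.039) and in edgeR with RLE factors (0.044), without TMM (0.042), with genes of at least 1 CPM (0.036), with a covariate of sex-linked transcripts (0.0092), in a fit to the 2 groups (0.041) and without the libraries labelled older (0.037).

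The other receptors of the SLAM family were lower where they changed, apart from Slamf8 in G-NHX9-midi-21FGAA. Of 7 tested, 5 were lower in G-NHX9 and in G-NHX9-midi, 4 in G-NHX9-21FGAA, 3 in G-NHX9-DDNA and 1 each in G-NHX9-8FA and G-NHX9-midi-21FGAA, where Slamf8 was higher. Slamf7, an activating receptor of lymphoid and myeloid cells, had a mean of 170 CPM in Empty and 72.1 CPM in G-NHX9 (log2 -1.24). Slamf9, a family member of macrophages, had 10.6 CPM in Empty and 2.13 CPM in G-NHX9-midi (log2 -2.31). Cd244, the receptor for Cd48, was called in none of the 6 comparisons by edgeR, with log2 fold changes between -0.38 and 0.05. Cd2, another ligand of Cd48, was lower in G-NHX9 (log2 -1.96), G-NHX9-8FA (-2.70) and G-NHX9-midi (-3.71).

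Cd27, a TNF receptor family member of early lymphoid-primed progenitors, was at the floor in the controls, at 0, 1, 3, 0 and 0 counts. G-NHX9 libraries held 107, 96, 90, 91 and 88 counts (2.03 to 2.97 CPM), G-NHX9-midi 37 to 110 counts and G-NHX9-8FA 42 to 90 counts. Against the floor of 3 counts per library, Cd27 was at least 30.3-fold higher in G-NHX9 than in Empty, at least 21.5-fold higher in G-NHX9-midi and at least 18.7-fold higher in G-NHX9-8FA. G-NHX9-21FGAA held 9, 13, 16, 19 and 31 counts, at least 4.44-fold higher than Empty and 6.89-fold below G-NHX9 (log2 -2.78 ± 0.34, adjusted p = 1.8e-07). All 4 of these differences from Empty were called by edgeR, with adjusted p of at most 1.2e-05. G-NHX9-8FA lay below all G-NHX9 libraries without a call by edgeR in the fit to all libraries (log2 -0.69, adjusted p = 0.13), but with one by DESeq2 (-0.7, adjusted p = 0.019) and in an edgeR fit to these 2 groups alone (-0.7, adjusted p = 0.017).

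Cd27 was at or near the floor in the other 2 constructs. G-NHX9-midi-21FGAA held 2, 0, 1, 2 and 0 counts, at least 30.5-fold lower than G-NHX9-midi, and G-NHX9-DDNA 1, 3, 1, 1 and 5 counts, 47.2-fold below G-NHX9 (log2 -5.56 ± 0.44, 95% interval -6.46 to -4.66, adjusted p = 1.6e-11). The 3 groups with the highest Cd27 were separated from G-NHX9-21FGAA, and G-NHX9-21FGAA from G-NHX9-DDNA, with no overlap of libraries. The ligand Cd70 stayed at a group mean of at most 0.0105 CPM. Of the adaptors, Traf5 was lower in G-NHX9, G-NHX9-8FA and G-NHX9-midi (log2 -0.44, -0.62 and -0.85) and higher in G-NHX9-midi-21FGAA (0.34), Siva1 was higher in those 3, in G-NHX9-21FGAA and in G-NHX9-DDNA (0.32 to 0.57), and Traf2 was called in none, at 0.09 to 0.22.

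Cd93, a C-type lectin-like receptor of early progenitors, monocytes and endothelium, was lower in both 21FGAA constructs and in G-NHX9-DDNA. Empty libraries held 979, 1250, 1150, 1110 and 1010 CPM. G-NHX9-21FGAA held 804, 694, 727, 560 and 526 CPM (log2 -0.73 ± 0.16, adjusted p = 0.0011), G-NHX9-DDNA 675, 577, 590, 728 and 842 CPM (log2 -0.69 ± 0.16, adjusted p = 0.0041) and G-NHX9-midi-21FGAA 848, 759, 723, 787 and 643 CPM (log2 -0.55 ± 0.16, adjusted p = 0.018). All 15 of these libraries were below all controls. The call for G-NHX9-midi-21FGAA was lost without Empty replicate 2 (0.053) or its own replicate 5 (0.069). In G-NHX9, G-NHX9-8FA and G-NHX9-midi the difference from Empty was -0.21, 0.02 and -0.20, with libraries from 687 to 1520 CPM. The 5 macrophage markers summed to 2690 to 3500 CPM in Empty, 1410 to 2530 CPM in G-NHX9-21FGAA, 2180 to 3010 CPM in G-NHX9-midi-21FGAA, 2140 to 2410 CPM in G-NHX9-DDNA and 1350 to 2380 CPM in G-NHX9, where Cd93 was not called. Their part in the result was not tested.

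Against G-NHX9, Cd93 was lower in G-NHX9-21FGAA (log2 -0.52, adjusted p = 0.022) and G-NHX9-DDNA (-0.48, adjusted p = 0.03), with overlapping libraries. The call against G-NHX9-21FGAA was lost without G-NHX9 replicate 1 (0.1), G-NHX9 replicate 3 (0.071), or replicates 4 (0.068) or 5 (0.093) of G-NHX9-21FGAA. The call against G-NHX9-DDNA was lost without G-NHX9 replicate 1 (0.11) or replicate 3 (0.092), or G-NHX9-DDNA replicates 1 (0.055), 2 (0.088) or 3 (0.089). In this order, the adjusted p of these calls was 0.064 and 0.056 in fits to the 2 groups alone, 0.055 and 0.061 without a filter on low counts, and 0.11 and 0.13 without the libraries labelled older. Between G-NHX9-midi and G-NHX9-21FGAA the difference was 0.53 (adjusted p = 0.01; 0.051 without G-NHX9-midi replicate 1). G-NHX9-midi-21FGAA against G-NHX9-midi was at -0.34 (adjusted p = 0.085), or -0.41 (adjusted p = 0.049) without G-NHX9-midi replicate 2.

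Prom1, a pentaspan membrane protein of plasma membrane protrusions, was called against Empty in G-NHX9, where it was lower. Empty libraries held 39.5, 42.7, 39.8, 38 and 33.9 CPM, and G-NHX9 held 21.6, 28.9, 23.5, 15.3 and 17.5 CPM, all below every control (log2 -0.86 ± 0.22, adjusted p = 0.0031). The 8FA and the shortened construct were above G-NHX9 with no overlap. G-NHX9-8FA held 43.5, 38, 40.4, 65.3 and 79.9 CPM, 2.5-fold higher (adjusted p = 8.7e-05), and G-NHX9-midi held 33.1, 63, 45.3, 35.8 and 50.9 CPM, 2.14-fold higher (adjusted p = 0.00051). G-NHX9-21FGAA held 35.8, 28, 32.4, 23.2 and 17 CPM (log2 -0.51 against Empty, adjusted p = 0.088), and G-NHX9-midi-21FGAA held 31.4, 32.4, 21, 30.9 and 16.5 CPM, below every control without a call (-0.55, adjusted p = 0.08; -0.56 with an adjusted p of 0.045 in a fit to the 2 groups alone) and 1.73-fold below G-NHX9-midi (adjusted p = 0.0043). G-NHX9-DDNA, at 27.2 to 44.2 CPM, was 1.69-fold above G-NHX9 (adjusted p = 0.012).

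Procr, the endothelial protein C receptor, was not called in any comparison with Empty by edgeR, with log2 fold changes between -0.31 and 0.49. Its libraries spread widely within groups, from 11.6 to 44.3 CPM in G-NHX9-8FA and from 13.3 to 37.9 CPM in G-NHX9-21FGAA. Its 1 call, higher in G-NHX9-midi-21FGAA (26.4, 19.3, 20.4, 23.6 and 33.3 CPM) than in G-NHX9-midi (8.79, 9.57, 11.3, 19.6 and 20.9 CPM; log2 0.81 ± 0.33, adjusted p = 0.047), was lost in 6 of 10 fits that left out 1 library. The adjusted p was 0.12, 0.11 and 0.094 without replicates 1, 2 and 3 of G-NHX9-midi, and 0.069, 0.059 and 0.11 without replicates 1, 4 and 5 of G-NHX9-midi-21FGAA, and it was 0.081 with the covariate of sex-linked transcripts. Its ligand gene Proc was at or near 0, with a group mean of at most 0.00535 CPM. Among partners of the 9 markers, a list of 13 ligands, paralogs and adaptors with 8 tested, the counts higher and lower than Empty were 1 and 3 in G-NHX9, 1 and 4 in G-NHX9-8FA and in G-NHX9-midi, 3 and 1 in G-NHX9-21FGAA, and 3 and 0 in G-NHX9-midi-21FGAA and in G-NHX9-DDNA. F2r, a thrombin receptor, was higher in G-NHX9-21FGAA, G-NHX9-midi-21FGAA and G-NHX9-DDNA (log2 1.20, 0.94 and 0.66), and Thbd, which encodes thrombomodulin, was lower in G-NHX9-21FGAA and G-NHX9-midi (-0.76 and -1.24).

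Compared directly with G-NHX9, 4 altered constructs each differed in 4 to 7 of the 9 markers. G-NHX9-midi-21FGAA was not compared with G-NHX9. In G-NHX9-8FA, Prom1 was higher and Cd34, Ly6a and Slamf1 lower, where 6.43% and 8.04% of all tested genes (14.5% together) were called, and 4 markers did not overlap (9.4% of genes). In G-NHX9-midi, Prom1 was higher and Cd34, Ly6a, Slamf1 and Esam lower, against 8.5% and 11.2% of genes (19.7%), and 5 did not overlap (13.1%). In G-NHX9-21FGAA, Slamf1 and Esam were higher and Ly6a, Cd93 and Cd27 lower, against 8.91% and 8.34% (17.2%), and 4 did not overlap (11.5%). In G-NHX9-DDNA, Slamf1, Esam and Prom1 were higher and Cd34, Ly6a, Cd93 and Cd27 lower, against 10.7% and 11.4% (22.1%), and 3 did not overlap (14.2%). These 4 comparisons share the 5 G-NHX9 libraries.

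G-NHX9-midi-21FGAA had higher Cd34, Procr, Slamf1 and Esam and lower Ly6a, Prom1 and Cd27 than G-NHX9-midi, where 21% and 22.2% of genes (43.2%) were called, and 5 markers did not overlap (30.1%). G-NHX9-midi had higher Ly6a, Cd93, Prom1 and Cd27 and lower Cd34, Slamf1 and Esam than G-NHX9-21FGAA, against 18.1% and 18% of genes (36.1%), and 5 did not overlap (24.5%). The Slamf1 difference between G-NHX9-8FA and G-NHX9 (log2 -1.18, adjusted p = 0.029) was lost without G-NHX9 replicate 2 (0.15) or 3 (0.086) or without G-NHX9-8FA replicate 1 (0.091), 2 (0.06) or 3 (0.061). That between G-NHX9-DDNA and G-NHX9 (log2 1.07, adjusted p = 0.03) was lost without G-NHX9 replicate 1 (0.087), 4 (0.088) or 5 (0.074) or G-NHX9-DDNA replicate 3 (0.071), 4 (0.058) or 5 (0.059), or without the libraries labelled older (0.091). In fits to the 2 groups alone the adjusted p of Slamf1 was 0.13 and 0.12 in these comparisons. Esam in G-NHX9-8FA against G-NHX9 (log2 -1.19, adjusted p = 0.077) was called by DESeq2 (-1.2, adjusted p = 0.04), without TMM (0.042), without G-NHX9 replicate 1 (0.035) and without the libraries labelled older (0.039). Esam was 2.87-fold higher in G-NHX9-DDNA than in G-NHX9 (adjusted p = 0.0098).

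The other surface genes of stem and progenitor cells, a list of 19 of which 18 were tested, were likewise split. Against Empty, 5 were higher and 6 lower in G-NHX9, 6 and 5 in G-NHX9-8FA, 5 and 7 in G-NHX9-midi, 5 and 7 in G-NHX9-21FGAA, 3 and 3 in G-NHX9-midi-21FGAA, and 1 and 3 in G-NHX9-DDNA. In that order, 61.1, 61.1, 66.7, 66.7, 33.3 and 22.2% of the tested genes of the list were called, against 32.1, 26.6, 40.5, 27.1, 16.9 and 17.2% of all tested genes. Flt3, the receptor of lymphoid-primed multipotent progenitors, had 0.187 CPM in Empty (3 to 11 counts), 9.14 CPM in G-NHX9, 1.54 CPM in G-NHX9-8FA and 2.2 CPM in G-NHX9-midi, with log2 fold changes of 5.61 ± 0.32, 3.05 ± 0.32 and 3.56 ± 0.31. It was not called in G-NHX9-21FGAA, G-NHX9-midi-21FGAA and G-NHX9-DDNA (log2 0.61, -0.72 and -0.37). Thy1, a GPI-anchored protein of stem cells and lymphocytes, had 15.8 CPM in Empty, 209 CPM in G-NHX9 and 103 CPM in G-NHX9-midi (log2 3.74 ± 0.40 and 2.72 ± 0.38).

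Kit and Tek are receptor tyrosine kinases of stem cells. Kit was lower in G-NHX9 (log2 -0.88) and G-NHX9-midi (-0.73) and higher in G-NHX9-21FGAA (1.03), G-NHX9-midi-21FGAA (1.38) and G-NHX9-DDNA (0.74). The 7 mast cell and basophil markers had mean sums of 3090, 3930 and 2480 CPM in G-NHX9-21FGAA, G-NHX9-midi-21FGAA and G-NHX9-DDNA. These sums were 1990 CPM in Empty, 622 CPM in G-NHX9, 547 CPM in G-NHX9-midi and 649 CPM in G-NHX9-8FA, where Kit was not called. The part of mast cells and basophils in the Kit levels was not tested. Tek was higher in G-NHX9-21FGAA (log2 3.17 ± 0.41) and G-NHX9-midi-21FGAA (2.27 ± 0.41), with 3.53 and 1.88 CPM against 0.392 CPM in Empty. Itga2b, an integrin gene of stem cells and megakaryocytes, was lower in G-NHX9-midi (log2 -1.93), as Slamf1 and Esam were. Emcn, a sialomucin like Cd34, had at most 1 count in any Empty library, and 11, 16, 18, 18 and 17 counts in G-NHX9 and 47, 31, 29, 67 and 38 counts in G-NHX9-21FGAA. It had 10 to 35 counts in G-NHX9-8FA, 10 to 34 in G-NHX9-midi, 3 to 19 in G-NHX9-midi-21FGAA and at most 1 in G-NHX9-DDNA. Its order of groups thus differed from that of Cd34. Cd82, a tetraspanin, was lower in all 6 constructs (log2 -0.25 to -0.53).

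**Figure D4:**
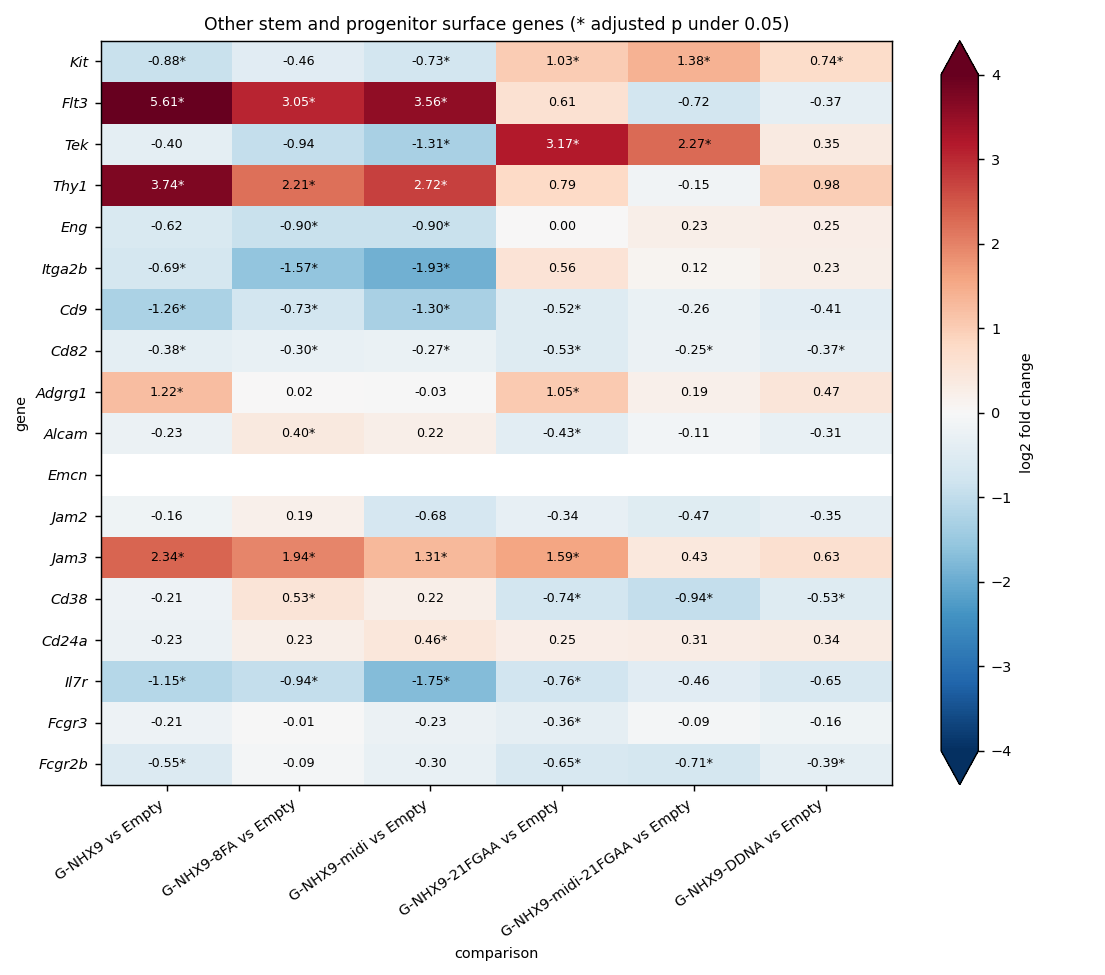
Log2 fold change against Empty (columns, 6 constructs) of 18 other surface genes of stem and progenitor cells (rows), from blue (lower) to red (higher), with an asterisk where the adjusted p was under 0.05 and Emcn left blank because Empty is at the floor. Flt3 and Thy1 are called higher in G-NHX9, G-NHX9-8FA and G-NHX9-midi, and Kit and Tek in G-NHX9-21FGAA and G-NHX9-midi-21FGAA, with Flt3 at 5.61 in G-NHX9 beyond the end of the colour scale at 4.

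Likeness across all 35 libraries was measured as Pearson's r of log2 CPM with each of 12767 genes, and it contains the differences between groups as well as those between libraries. For Slamf1 the most alike genes were Pf4 (r = 0.99) and Gp6 (0.983), and for Esam Tspan9 (0.979) and Fam65c (0.978). Pf4 had 339 ± 97.8 CPM (SD, n = 5) in Empty, 38.3 ± 15.4 CPM in G-NHX9-midi and 565 ± 208 CPM in G-NHX9-21FGAA. For Cd27 they were Hoxb5os (0.951) and Epb41l4b (0.95). Hoxb5os, a transcript of the Hoxb cluster, had at most 0.0689 CPM in Empty libraries, and means of 6.87 CPM in G-NHX9, 9.65 CPM in G-NHX9-8FA and 3.73 CPM in G-NHX9-midi. Its order of groups differed from that of Cd27, which was highest in G-NHX9.

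The other markers had less close companions. For Cd34 they were Ppm1e (0.878) and Epha3 (0.853), for Ly6a Ptafr (0.908) and Got1 (0.898), and for Cd93 Atf6 (0.929) and Dpep2 (0.92). Epha3, an ephrin receptor, had means of 0.239 CPM in Empty, 2.63 CPM in G-NHX9 and 11 CPM in G-NHX9-21FGAA, and Ptafr, the receptor for platelet-activating factor, 84.5, 161 and 55.5 CPM. Procr was most like Smpdl3b (0.892) and Tal2 (0.844), Cd48 like Tmem237 (0.894) and Bzw1 (0.847), and Prom1 like Lonp2 (0.876) and G0s2 (0.86).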

How the data were processed

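RNA-seq counts of lin- HSPCs, 5 libraries in each of 7 groups, were used. The authors deposited raw read counts for 49671 genes, without normalization. The submitters' processing notes list STAR 2.7.0d, HTSeq 0.11.2, DESeq2 and mm10 with no role or order, and the annotation and strand setting are not given in the sources used here, although the library kit was stranded. Groups and replicate numbers came from the sample titles. Gene positions came from GENCODE M21 (GRCm38), which held 49326 of the identifiers (99.3%) when versions were ignored.

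In edgeR 4.0.16 (R 4.3.3), filterByExpr kept 17166 genes holding 99.96% of reads, TMM factors ran from 0.899 to 1.11, and 1 quasi-likelihood model with a mean per group covered all 35 libraries. Within each of 12 comparisons, Benjamini-Hochberg adjustment ran over all tested genes, with a threshold of 0.05. Likeness used log2 CPM (prior count 2) of genes averaging 1 CPM or more. Where every library of a group had at most 3 counts, folds were computed against 3 counts per library and cover counting error only. No 2 libraries of a group agreed within sampling noise, with a chi-square per degree of freedom of at least 24.7. By this measure replicates 2 and 3 were the most alike pair in every group except Empty (24.7 to 36.8). In Empty it was 28 for replicates 4 and 5 and 35.5 for replicates 2 and 3. The libraries of a group may thus not be independent of each other. The scripts were tested on simulated data. Figures used Python 3.11.15 and matplotlib 3.10.9.

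Libraries are numbered 1 to 5 in each group. Deviations from group means correlated at 0.232 on average between same-numbered libraries and at -0.0571 between others. All 5 pairs exceeded 0.1 in 5 of 12 comparisons (G-NHX9, G-NHX9-midi-21FGAA and G-NHX9-DDNA against Empty, G-NHX9-21FGAA and G-NHX9-DDNA against G-NHX9), which were taken as paired by this pattern in the data, since no label says what the number marks. The main fit, from which the calls come, left this pairing out in all comparisons. Alternatives were other scalings and filters, DESeq2 1.42.0, a fit to the 2 groups compared, the replicate number as a block, a covariate of sex-linked transcripts, leaving out each library and, chosen after seeing the data, leaving out the 3 libraries labelled older.

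The 9 markers, gene lists and tests were chosen with earlier results of these data known. All 9 are reported throughout. From other lists, called genes with the largest or smallest changes and defining markers are named, others (such as ligands and receptors named for their role) were chosen after their values were seen, and for each marker the 2 most alike genes are named. Some genes of these lists are not reported here, and the list counts leave them out.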

Additional observations from a re-analysis of the deposited data

Results flagged for a closer look

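Single libraries stood apart from the other 4 of their group in 3 of 61 sets of 5 examined, about the 1 in 20 that chance gives. Procr was 16.8 CPM in G-NHX9-DDNA replicate 5, where the others lay between 22.2 and 24.3 CPM. Cd48 was 46.0 CPM in G-NHX9 replicate 4, where the others lay between 59.4 and 64.5 CPM. Cd27 was 0.74 CPM in G-NHX9-21FGAA replicate 5, where the others lay between 0.191 and 0.313 CPM.

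Among the 6 direct comparisons of constructs run in edgeR, 2 set constructs against each other that had changed a marker in opposite directions against Empty. Other such pairs, as G-NHX9-midi and G-NHX9-DDNA for Ly6a and G-NHX9-8FA and G-NHX9-21FGAA for Slamf1, were not compared directly. Ly6a was higher in G-NHX9 and lower in G-NHX9-DDNA, with a log2 fold change between them of -1.82 (adjusted p = 2.6e-10). Slamf1 was higher in G-NHX9-21FGAA and lower in G-NHX9-midi, with a log2 fold change between them of -4.1 (adjusted p = 1.3e-09).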

How the results depend on the processing

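Of 107 marker values, 59 were called, and none of these changed sign under any alternative run. At least 1 alternative ended the call of 11, named in the report, and brought 11 others under the threshold. Members changed in G-NHX9-DDNA against Empty were 1 instead of 3 without the 3 libraries labelled older, and all genes changed were 1942 instead of 2952 there and 1475 instead of 2903 in G-NHX9-midi-21FGAA against Empty. Genes changed between G-NHX9-8FA and G-NHX9 were 2484, but 3952 with the replicate block and 1559 in a fit to the 2 groups alone, and 1556 to 2827 when single libraries were left out, lowest without G-NHX9 replicate 5. In G-NHX9-DDNA against Empty they were 1918 to 3314, lowest without G-NHX9-DDNA replicate 3. The cause was not tested.

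Where the number pairs libraries, the replicate block changed no other call than that of Cd48. In comparisons where it does not, the block gave Esam -1.18 (adjusted p = 0.015) in G-NHX9-8FA against G-NHX9, Ly6a 0.39 (0.046) in G-NHX9-8FA against Empty, and Cd48 0.39 (0.012) and Cd93 -0.34 (0.048) in G-NHX9-midi-21FGAA against G-NHX9-midi. Without TMM the median of all genes lay between 0.08 and 0.19 against Empty, a shift of 0.05 to 0.18, and at -0.12 between G-NHX9-8FA and G-NHX9, and Cd48 against Empty was called in G-NHX9 (0.5, adjusted p = 0.012) and G-NHX9-21FGAA (0.45, adjusted p = 0.029).

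Some uncalled values changed sign, and not all of these were near 0. Procr against Empty was 0.38 in G-NHX9-8FA and 0.22 in G-NHX9-21FGAA with all libraries. It was -0.02 without G-NHX9-8FA replicate 2 and -0.13 without G-NHX9-21FGAA replicate 4. Without TMM, Prom1 was 0.03 in G-NHX9-DDNA against Empty, Procr -0.04 in G-NHX9-8FA and -0.01 in G-NHX9-DDNA against G-NHX9, and Cd93 -0.04 in G-NHX9-midi against G-NHX9. That Cd93 value was -0.04 with the covariate of sex-linked transcripts and -0.02 in the 2-group fit. Cd93 in G-NHX9-8FA against Empty was -0.01 with the replicate block and -0.03 without the older libraries, which also gave -0.03 for Cd48 there and -0.04 for Procr in G-NHX9-DDNA against G-NHX9. With single libraries left out, Cd93 ran from -0.13 to 0.12 in G-NHX9-8FA against Empty and from -0.11 to 0.11 in G-NHX9-midi against G-NHX9. Procr ran from -0.02 to 0.57 in G-NHX9-8FA and from -0.13 to 0.45 in G-NHX9-21FGAA against Empty, and against G-NHX9 from -0.29 to 0.36 (G-NHX9-8FA), -0.4 to 0.24 (G-NHX9-21FGAA) and -0.03 to 0.34 (G-NHX9-DDNA). Cd48 ran from -0.12 to 0.08 in G-NHX9-midi against G-NHX9-21FGAA, and against G-NHX9 from -0.19 to 0.02 (G-NHX9-midi) and -0.14 to 0.04 (G-NHX9-DDNA).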

Other observations

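Erythroid markers changed in several constructs. Of 7 tested, 7 were lower in G-NHX9-8FA and 6 in G-NHX9-midi than in Empty, and 6 were higher in G-NHX9-21FGAA and in G-NHX9-midi-21FGAA. Their sum lay between 95.4 and 292 CPM in Empty, 22.1 and 47.3 CPM in G-NHX9-8FA, and 168 and 708 CPM in G-NHX9-21FGAA. In G-NHX9 1 of the 7 was called higher and 0 lower, with a sum of 93.8 to 242 CPM.

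Neutrophil markers summed to 7470 to 18400 CPM in G-NHX9-8FA against 3740 to 6420 CPM in Empty, and 4 of 7 were called higher there. In G-NHX9-DDNA 5 were higher, with a sum of 6440 to 11500 CPM, in G-NHX9-21FGAA 3 (4410 to 7520 CPM) and in G-NHX9 2 (5170 to 8420 CPM). In G-NHX9-midi 2 were higher and 2 lower, and in G-NHX9-midi-21FGAA, at 2890 to 6880 CPM, no change was called by edgeR.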
